A study of Homo sapiens with 12 samples.

Results

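The question here was whether the effect of Wnt3a and Wnt5a given together equalled the sum of their separate effects, gene by gene. CHRF288-11 is an established human megakaryoblastic leukaemia line, kept without serum for 16 h before treatment. The 4 groups, each of 3 arrays, were cells with no added ligand, with Wnt3a at 150 ng/mL, with Wnt5a at 1200 ng/mL and with both ligands at those doses, all for 8 h. All 12 arrays of the 12 in the series were used. The Illumina arrays carried 48803 probes, of which 14051 probes for 11099 genes were detected on at least 3 arrays and were tested. The labels do not say that replicates came from separate cultures, so the p-values measure only the spread between these samples, which may be technical.

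Wnt ligands are secreted lipid-modified proteins that bind Frizzled receptors. Wnt3a is the classic activator of the canonical branch, in which beta-catenin is stabilised and acts with TCF and LEF factors on target genes. Wnt5a is known mainly for branches that do not need beta-catenin, and in several systems it limits the canonical branch. Megakaryocytes and their progenitors carry Frizzled receptors and respond to Wnt ligands.

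Of the 9 megakaryocyte markers examined, 7 were detected on every array, among them ITGA2B, GP9 and TUBB1, while PF4 and PPBP were detected on none. None of the 5 granulocyte and 5 fibroblast markers was detected on any array. Other blood cell markers that were detected on all arrays included HBB, HBG1, HBG2, KLF1, EPOR, CD2, CD79A, CD79B, CSF1R and LYZ. Between 12511 and 14088 probes were detected per array. Each array was one position on 1 of 2 BeadChips. Chip 2 held the 3 arrays with both ligands and 1 array of each other group, and chip 1 held 2 arrays of each of the other groups. The values given here come from a fit with a chip term unless another is named, and only chip 2 allows the comparison within a chip.

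The measure used throughout is the interaction, the joint effect minus the sum of the separate effects on the log2 scale. A value of 0 means that the fold changes of both ligands multiplied. No probe passed for the interaction at an adjusted p of 0.05 (0 of 14051, 0%), by limma with Benjamini-Hochberg adjustment over all probes, and the smallest adjusted p was 0.262. At an unadjusted p of 0.05 there were 1101 probes, 7.84% of those tested. The interaction exceeded 0.5 in size for 135 probes (0.961%) and exceeded 1 for 0 probes. Its variance was 2.33 times that of a comparison of one ligand with untreated cells. The 95% confidence interval lay wholly within 0.5 of 0 for 10376 probes, 73.8% of those tested, so departures larger than that were outside the interval for most genes.

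Genes that responded to Wnt3a had, in most cases, a smaller Wnt3a effect with Wnt5a present than without it. The average effect of Wnt3a, over cells with and without Wnt5a, passed for 246 probes of 224 genes (1.75% of those tested), 176 higher (1.25%) and 70 lower (0.498%). For 186 of these 246 probes (75.6%) the interaction had the sign opposite to the Wnt3a effect, against 47.9% of all tested probes. The estimate of the average effect is nearly uncorrelated with that of the interaction (0.143 from the design), so this choice of probes did not choose their interaction. The median size of the Wnt3a effect was 0.39 in cells without Wnt5a and 0.28 in cells with Wnt5a, and the direction was kept with Wnt5a in 245 of 246 probes. The median interaction, counted as positive in the direction of the Wnt3a effect, was -0.12. These medians and shares are descriptions, since probes of one gene and genes of one array are not independent.

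The share was similar in both directions of the Wnt3a effect. It was 133 of 176 (75.6%) among probes that rose and 53 of 70 (75.7%) among those that fell. It was 109 of 131 (83.2%) for probes above the median signal of all tested probes and 77 of 115 (67.0%) for those below it. Among the 210 probes detected on all 12 arrays it was 164 (78.1%). At the level of single probes, 157 of the 246 (63.8%) had an interval wholly within 0.5 of 0, against 73.8% of all probes, and the other 89 were unresolved. Within chip 2 alone the share was 72.4%, against 52.2% of all tested probes. That comparison rests on 1 array of each group other than the combination, and the main fit uses the same arrays. One array moved the share of the main fit most, Wnt5a replicate 2, the only Wnt5a array on chip 2. Without it the share was 57.8% of 154 probes with a median of -0.07, against 35.7% of all tested probes. Without Untreated replicate 1, 75 probes passed and 84.0% were opposed, with a median of -0.21, and without Wnt3a replicate 3 the median was -0.21 over 134 probes. Without Wnt3a replicate 2, 140 probes passed and 82.1% were opposed.

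For genes that responded to Wnt5a the share was near that of all probes. The average effect of Wnt5a passed for 1730 probes (12.3%), 945 higher (6.73%) and 785 lower (5.59%). The interaction was opposed to it for 676 probes (39.1%), against 40.0% of all tested probes. The median size of the Wnt5a effect was 0.27 without Wnt3a and 0.31 with Wnt3a. The interval lay within 0.5 of 0 for 1300 of them (75.1%), close to the 73.8% of all probes. This share depended on the chip term: without it 57.4% of 1226 probes were opposed, against 49.2% of all tested probes. The Wnt3a share without the term was 85.3%, against 54.1% of all tested probes. Whether the Wnt3a and Wnt5a shares differ was not tested. The count of 1730 was 952 without Untreated replicate 1, 868 without Wnt3a replicate 1 and 1045 without Wnt5a replicate 3.

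**Figure D1:**
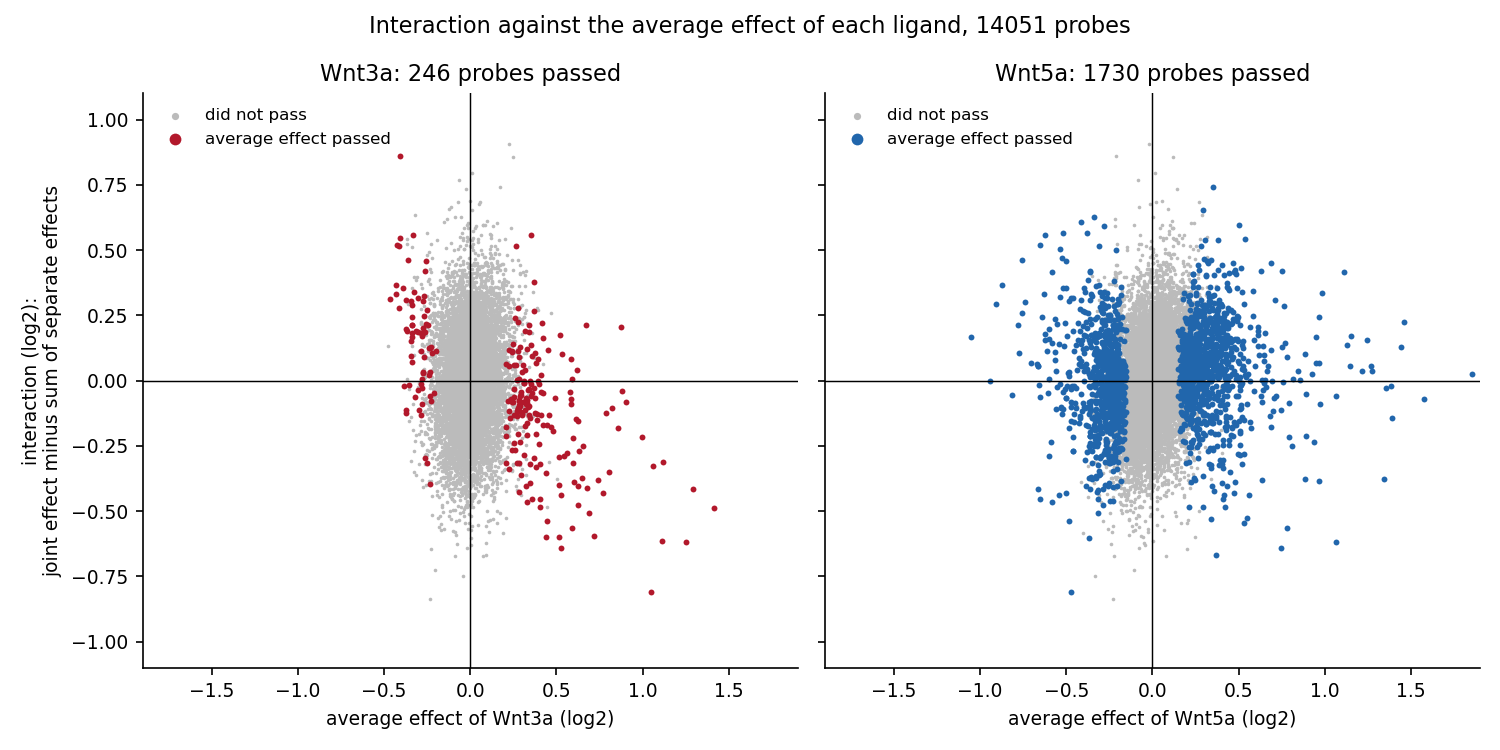
Each point is 1 of 14051 probes, with the average effect of Wnt3a (left) or Wnt5a (right) in log2 on the x axis and the interaction in log2 on the y axis. Coloured points passed for the average effect: 186 of 246 Wnt3a probes lie in the quadrants where the signs differ, and 676 of 1730 Wnt5a probes do.

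For the genes with the largest Wnt3a responses the estimated joint effect fell below the sum by varying amounts. None of them passed for the interaction. Among all Wnt3a probes that passed above the median signal, 83.2% were opposed. All 10 of the genes with the largest average Wnt3a effects among probes above the median signal rose with Wnt3a, and all 10 had a negative interaction, from -0.81 for KCTD12 to -0.08 for CEMIP2. EPAS1 encodes HIF-2 alpha, a hypoxia-regulated transcription factor. Its log2 signal was 8.19, 8.26 and 8.21 in untreated cells, 9.75, 9.69 and 9.72 with Wnt3a, 7.72, 7.84 and 7.73 with Wnt5a and 8.90, 8.86 and 8.85 with both. No groups overlapped, and the arrays with both ligands lay between untreated and Wnt3a cells. In the fit the joint effect was 0.62, where the sum was 1.04. The interaction was -0.41 (95% confidence interval -0.61 to -0.22, limma adjusted p = 0.336), and it was -0.53 within chip 2.

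KCTD12, an auxiliary subunit of GABA-B receptors, had the largest shortfall of these genes. Its log2 signal was 7.45, 7.53 and 7.26 in untreated cells and 8.79, 9.04 and 8.77 with Wnt3a. With Wnt5a alone it was 7.17, 7.56 and 7.31, which overlapped untreated cells, and with both it was 7.84, 8.18 and 8.13. The joint effect was 0.58 against a sum of 1.39, an interaction of -0.81 (-1.21 to -0.41, limma adjusted p = 0.365). Wnt5a alone differed from untreated by -0.07 in the fit, while every array with both ligands lay below every array with Wnt3a alone.

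The other genes of this group ranged from near the sum to well below it. MMD, a membrane protein of macrophage differentiation, had a joint effect of 1.04 against a sum of 1.37. LRRC32, the cell-surface docking protein for latent TGF-beta, had 0.80 against 1.15. EFNB1, a ligand of Eph receptors, had 0.99 against 1.37, with 8.03, 7.85 and 7.95 in untreated cells and 8.96, 8.90 and 8.93 with both. DCUN1D3, a neddylation factor, had 0.27 against 0.70, with an interval of the interaction that included 0 (-0.86 to 0.004). For SPRY1, a feedback inhibitor of receptor tyrosine kinases, the joint effect was 0.54 against a sum of 0.75. The interval of its interaction included 0 and lay just within 0.5 of it (-0.498 to 0.067). Its other probes gave interactions of -0.31 and -0.18. CEMIP2, a hyaluronan-degrading membrane protein, and TMEM158, a Ras-responsive membrane protein, had interactions of -0.08 and -0.11 with intervals within 0.5 of 0. Both were thus additive within that bound, as was the first SPRY1 probe.

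**Figure D2:**
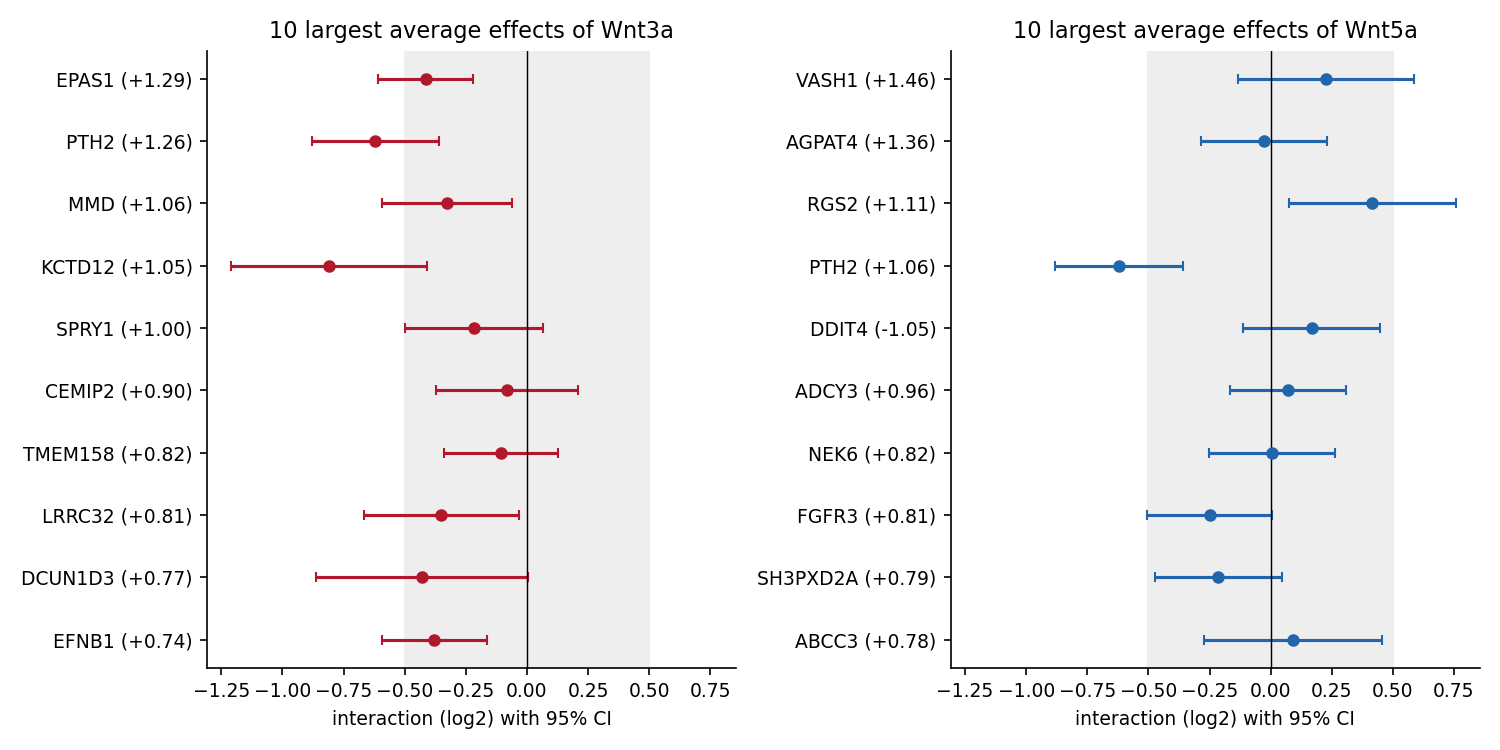
The interaction in log2 (x axis, point) with its 95% confidence interval (bar) for the 10 genes of largest average Wnt3a effect (left) and Wnt5a effect (right); the average effect stands in brackets and the grey band spans 0.5 on each side of 0. All 10 Wnt3a genes lie below 0, and of the Wnt5a genes 6 lie above 0 and 4 below.

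In 51 probes of 47 genes both averages passed in opposite directions, 45 higher with Wnt3a and lower with Wnt5a. The interaction was opposed to the Wnt3a effect in 46 of 51 (90.2%, against 47.9% of all tested probes), with a median of -0.13. These counts include CITED4 and CASS4, which were detected on no untreated or Wnt5a array, so no interaction is read from them. In a fit of probes detected on all 12 arrays, 90.9% of 55 such probes were opposed, against 48.2% of all those tested. Because the averages differ in sign here, the interaction of those 46 had the direction of the Wnt5a effect. Their Wnt5a effect was thus larger with Wnt3a than without it. For EPAS1 it was -0.46 without Wnt3a and -0.87 with Wnt3a. The count of 51 was 16 without Untreated replicate 1, 33 without Wnt3a replicate 1, 31 without Wnt3a replicate 2, 31 without Wnt5a replicate 2 and 33 without Wnt5a replicate 3, and the lowest share among these was 67.7%, without Wnt5a replicate 2. For the 45 probes the median Wnt3a effect was 0.43 without Wnt5a and 0.31 with it. Besides EPAS1, KCTD12, SPRY1, CEMIP2, TMEM158 and DCUN1D3, these included ADM, which encodes the vasodilator peptide adrenomedullin. ADM signal was 8.21, 8.11 and 8.24 in untreated cells, 8.92, 8.71 and 8.63 with Wnt3a, 7.91, 7.83 and 7.76 with Wnt5a and 8.06, 8.02 and 7.91 with both. All 3 arrays with both ligands thus lay below the untreated arrays, although Wnt3a alone lay above them. The interaction of ADM was -0.47 (-0.72 to -0.21, limma adjusted p = 0.483). GADD45A, a growth-arrest and DNA-damage gene, had 9.65, 9.53 and 9.53 untreated, 10.20, 10.03 and 9.97 with Wnt3a, 9.46, 9.53 and 9.39 with Wnt5a and 9.61, 9.66 and 9.61 with both. Its joint effect was -0.04 where the sum was 0.38, and a further GADD45A probe gave -0.28. In the reverse direction 6 probes were lower with Wnt3a and higher with Wnt5a, and all 6 were opposed. Among them CCL2, a monocyte chemoattractant, had an interaction of 0.25 (0.06 to 0.44, limma adjusted p = 0.575). Its joint effect, 0.32 against a sum of 0.07, was above the sum.

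In 61 probes of 55 genes both averages passed in the same direction. For 47 of 61 (77.0%) the interaction was opposed, so the joint effect was smaller in size than the sum. That share was close to the 75.6% of all 246 probes that passed for Wnt3a, against 47.9% of all tested probes. In a fit of probes detected on all 12 arrays it was 76.4% of 72. Of the 34 that fell with both ligands 30 (88.2%) were opposed, and of the 27 that rose 17 (63.0%). The count of 61 was 16 without Untreated replicate 1, 38, 34 and 26 without Wnt3a replicates 1, 2 and 3, 32 without Wnt5a replicate 2 and 40 without Both replicate 2, with shares from 71.9% to 85.3%. The median Wnt3a effect of the 61 was 0.44 without Wnt5a and 0.25 with it. PTH2, named by the file's own symbol, encodes a peptide ligand of a parathyroid hormone receptor. Its log2 signal was 6.65, 7.05 and 6.84 in untreated cells, 8.31, 8.38 and 8.55 with Wnt3a, 8.24, 8.03 and 8.39 with Wnt5a and 8.99, 8.95 and 9.06 with both. Either ligand alone was above untreated cells on every array, and both together were highest on every array. The joint effect was 2.32 against a sum of 2.94, an interaction of -0.62 (-0.88 to -0.36, limma adjusted p = 0.262). On the linear scale the sign turned: the joint gain of PTH2 exceeded the summed gains by 12.4% of the untreated signal.

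NCALD, a neuronal calcium sensor protein, followed the same order. It measured 7.93, 7.95 and 8.06 in untreated cells, 8.94, 8.74 and 8.81 with Wnt3a, 8.95, 9.06 and 9.14 with Wnt5a and 9.26, 9.25 and 9.34 with both. The joint effect was 1.28 against a sum of 1.92 (interaction -0.64, limma adjusted p = 0.262), and another NCALD probe detected on all arrays gave -0.56. Among genes that fell with both, the ERK-responsive factor ETV5 had an interaction of 0.46 on a probe detected on all arrays. Another ETV5 probe was detected on the 3 untreated arrays and on none of the treated ones. No interaction is read from it, although it stands among the opposed in the counts above. The metallothionein gene MT1X had 0.52, and the zinc exporter gene SLC30A1 had 0.31. CCND1, which encodes cyclin D1, had 6.84, 6.71 and 7.05 untreated and 5.55, 5.28 and 5.76 with both, with a joint effect of -1.30 against a sum of -1.67. One of its 3 arrays with both ligands was below the detection limit, so the joint fall of CCND1 is less certain there. IL1B, an inflammatory cytokine, was close to the sum: it had a joint effect of -0.84 against -0.82, and an interaction of -0.02 (-0.24 to 0.20).

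The 10 probes of smallest p in each direction were also examined, none of which passed. Choosing a negative interaction favours high estimates with each ligand alone, since the interaction subtracts both separate effects. MYCN, a MYC-family transcription factor, measured 9.19, 9.20 and 9.25 in untreated cells, 9.92, 9.99 and 9.94 with Wnt3a, 9.36, 9.59 and 9.43 with Wnt5a and 9.55, 9.71 and 9.61 with both. On this probe the arrays with either ligand alone were above untreated cells, yet the arrays with both overlapped those with Wnt5a alone. Wnt5a alone did not pass against untreated cells (limma adjusted p = 0.071), and on the other MYCN probe it differed from them by -0.01. The joint effect of MYCN was 0.39 against a sum of 0.99 (interaction -0.60, -0.84 to -0.36, limma adjusted p = 0.262), while its other probe gave -0.13. MAP1B, a microtubule-associated protein named by the file's symbol, had a joint effect of 1.12 against 1.73 (interaction -0.61). A dimmer MAP1B probe, detected on 6 of 12 arrays, gave -0.04. ZNF311, a zinc finger gene, and GSTO2, a glutathione transferase gene, had joint effects of -0.04 and -0.21 where the sums were 0.59 and 0.36.

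The probes of smallest p with a positive interaction mostly had negative estimates with each ligand alone, which the choice favours: the interaction subtracts both separate effects, and its estimate correlates with that of Wnt3a alone at -0.655 by design. C5AR1, the receptor for complement C5a, measured 7.73, 7.89 and 7.75 in untreated cells, 6.79, 7.17 and 6.90 with Wnt3a, 7.17, 7.05 and 7.21 with Wnt5a and 6.94, 7.21 and 7.03 with both. The 3 treated groups overlapped each other and all lay below untreated cells. The joint effect was -0.62 against a sum of -1.48, an interaction of 0.86 (0.56 to 1.16, limma adjusted p = 0.262) and 0.95 within chip 2. BCL2, an inhibitor of apoptosis, measured 8.23, 8.42 and 8.48 untreated, 7.73, 8.00 and 8.05 with Wnt3a, 7.68, 7.64 and 7.66 with Wnt5a and 7.61, 7.79 and 7.67 with both. Its arrays with both ligands overlapped those with Wnt5a alone, and the joint effect was -0.56 against -1.17. The other BCL2 probe gave 0.36. FOXA2, a forkhead transcription factor of endoderm, measured 9.21, 9.23 and 9.16 untreated, 8.39, 8.57 and 8.59 with Wnt3a, 9.04, 8.88 and 9.10 with Wnt5a and 8.76, 8.88 and 8.72 with both. The interaction of FOXA2 was 0.55 (0.31 to 0.78). FAM89A and TC2N, with negative estimates for each ligand alone, had interactions of 0.63 and 0.57. Other FAM89A probes disagreed, at 0.77 on a probe detected on 8 arrays and 0.06 on one detected on all 12. MAP3K12, a stress-pathway kinase, and OSTM1, a partner of a lysosomal chloride transporter, had 0.56 each. The EMR4, ANKRD16 and DSCAM probes were detected on few arrays, and ANKRD16 and DSCAM on none with a single ligand, so no joint effect is set against a sum for them.

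**Figure D3:**
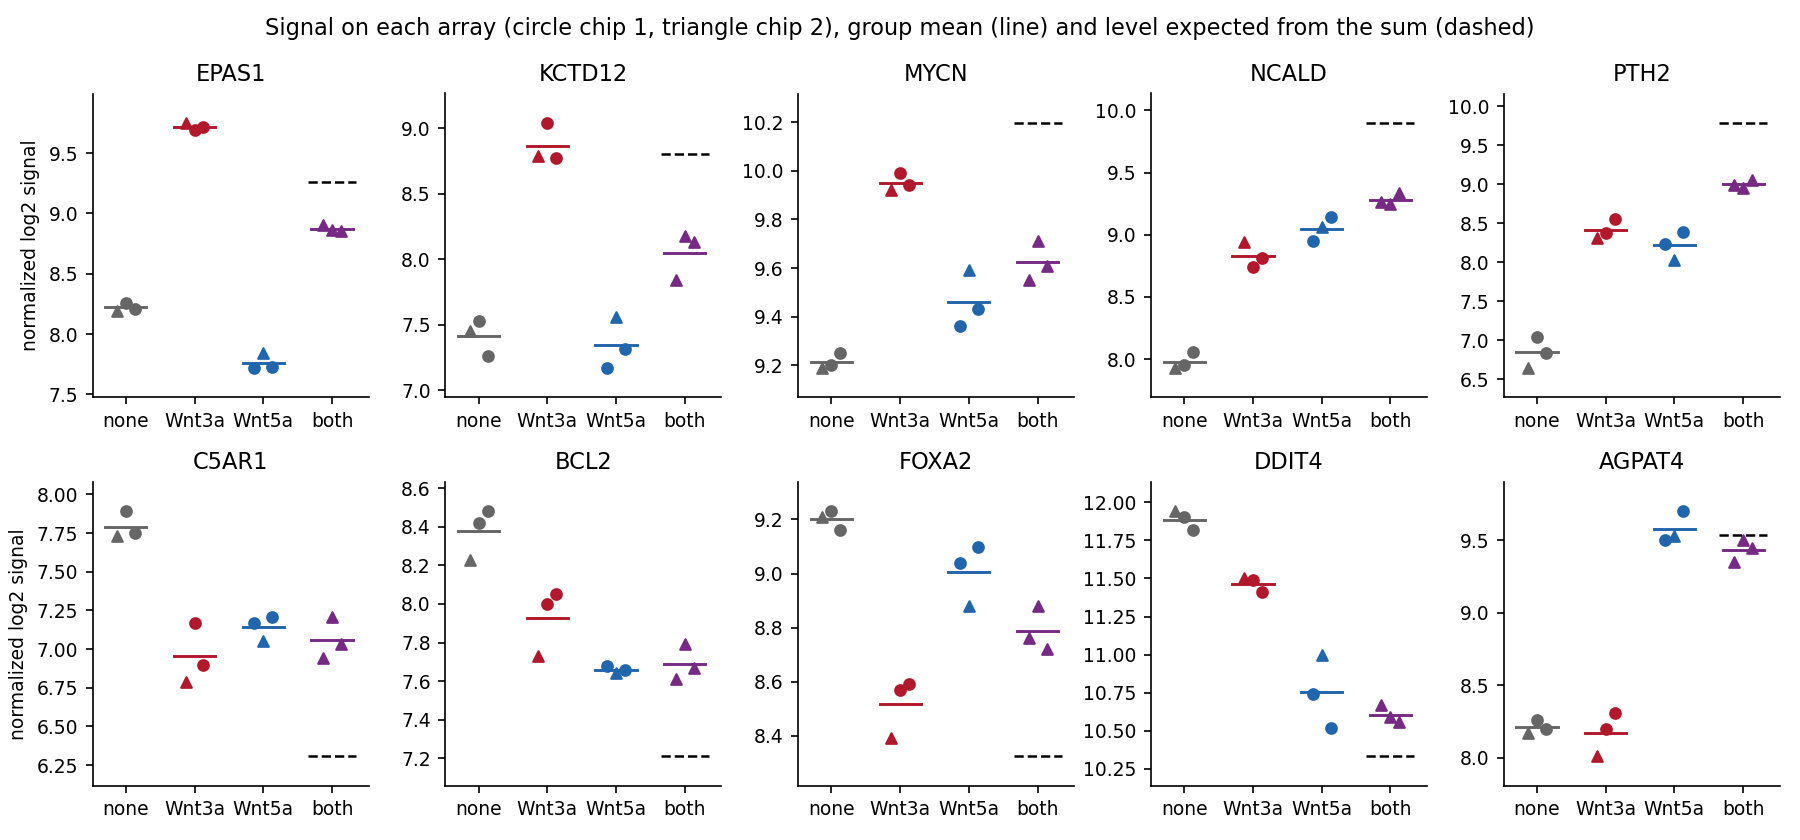
Normalized log2 signal (y axis) of 10 genes on each array in the 4 groups (x axis), with circles for chip 1 and triangles for chip 2. Solid lines are group means and the dashed line is the level the sum of separate effects gives from these means without the chip term. Arrays with both ligands lie below it for EPAS1, KCTD12, MYCN, NCALD, PTH2 and AGPAT4 and above it for C5AR1, BCL2, FOXA2 and DDIT4. In the fit with the chip term the interval of the interaction included 0 for AGPAT4 and DDIT4.

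Of the 10 genes with the largest Wnt5a responses above the median signal, some were near the sum. The interval of the interaction lay within 0.5 of 0 for AGPAT4, DDIT4, ADCY3, NEK6, SH3PXD2A and ABCC3. It reached beyond that for RGS2, VASH1, FGFR3 and PTH2, the last of which is described above. AGPAT4, a lysophosphatidic acid acyltransferase, measured 8.17, 8.26 and 8.20 untreated, 8.01, 8.20 and 8.31 with Wnt3a, 9.50, 9.53 and 9.70 with Wnt5a and 9.35, 9.50 and 9.45 with both. The joint effect was 1.31 against a sum of 1.34, an interaction of -0.03 (-0.28 to 0.23). ADCY3, an adenylate cyclase, and NEK6, a mitotic kinase, had 0.07 and 0.01, with intervals within 0.5 of 0. DDIT4, an inhibitor of mTORC1 induced by stress, had the joint effect -1.39 against -1.56. The arrays with both ligands, at 10.67, 10.59 and 10.56, overlapped those with Wnt5a alone at 10.74, 11.00 and 10.52. RGS2, a regulator of G protein signalling, had the interaction 0.42 (0.08 to 0.76, limma adjusted p = 0.597), with 1.03 jointly against a sum of 0.61. VASH1, an angiogenesis regulator, had 1.26 against 1.03. FGFR3, a growth factor receptor, had 0.97 against 1.22, and SH3PXD2A, a podosome scaffold, had 0.98 against 1.19. ABCC3, an organic anion transporter, had 0.73 against 0.64. Outside those 10 genes, ID3, a dominant-negative helix-loop-helix factor, had 0.75 against 0.98. GFI1B, a transcriptional repressor that acts in megakaryocyte and erythroid cells, had -0.85 against -1.03. CHAC1, a glutathione-degrading stress gene, had -1.27 against -1.56, with 2 of 3 arrays detected with both ligands. HAVCR2, an immune checkpoint receptor, was detected on 1 of 3 untreated and 1 of 3 Wnt3a arrays and on all arrays with Wnt5a or both, so no interaction is read from it.

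Canonical Wnt genes gave mixed values. NKD1, a feedback inhibitor of the pathway, was detected on all 3 arrays with Wnt3a and all 3 with both, and on none of the untreated or Wnt5a arrays. Its signal was 5.55, 6.04 and 5.83 with Wnt3a and 5.94, 6.21 and 6.03 with both, which overlap, and because the other groups were not well above background no interaction is read from it. AXIN2, another feedback gene, had no tested probe. LEF1, a DNA-binding partner of beta-catenin, had an interaction of -0.24 (-0.49 to 0.01). It was 9.23, 9.35 and 9.19 untreated, 9.54, 9.48 and 9.52 with Wnt3a and 8.95, 9.11 and 8.98 with Wnt5a. With both ligands LEF1 was 8.95, 9.17 and 9.07, which overlapped Wnt5a alone, and both of these groups lay below untreated cells. MYC, a growth-promoting transcription factor, had an interaction of 0.15 (-0.05 to 0.36). Of 18 tested canonical target genes 13 had a positive and 5 a negative interaction, with a median of 0.06. The 4 of them that responded to Wnt3a on average, CCND1, ID2, MECOM and MYCN, were all opposed on the brightest probe of each. The intervals for CCND1 (-0.05 to 0.78) and ID2 (-0.10 to 0.35) included 0. Another ID2 probe, which also passed and fell with Wnt3a, had an interaction of -0.01 and was not opposed.

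Across 24 gene lists with 552 tested genes, 0 members passed for the interaction, as for all genes. At an unadjusted p of 0.05 there were 57 members (10.3%), against 870 of all 11099 genes (7.84%). Over all tested genes the median was -0.0003 and 49.9% were positive. The average Wnt3a effect passed for 43 of the 552 listed genes, against 1.75% of all tested probes. Of these 43, 38 (88.4%) were opposed, against 75.6% of all 246 probes that passed. The units differ, since a listed gene counts only by its brightest tested probe. Among passing probes above the median signal the share was 83.2%. The counts for single lists below rest on few genes and are to be read against these shares of all passing probes. Of 38 amino acid stress genes, which are induced through ATF4 when amino acids are short, 29 had a positive interaction, with a median of 0.11. The average Wnt5a effect lowered 28 of the 38, and in 23 of those 28 the interaction was positive. Over all tested probes Wnt5a lowered 5.59%, and 347 of those 785 (44.2%) had a positive interaction. The cysteine-synthesis gene CTH, by contrast, rose with Wnt3a and had an interaction of -0.44. In the metallothionein and zinc transport list 14 of 19 were positive, with a median of 0.10. Its 5 members with an average Wnt3a effect, MT1A, MT1X, MT2A, SLC30A1 and SLC39A10, were all opposed: the first 4 fell with Wnt3a and SLC39A10 rose. The hypoxia list held 4 such genes, ADM, BNIP3, EPAS1 and SLC2A1, all opposed, although SLC2A1 at -0.01 was near additive. In the p53 list BIK, GADD45A, PMAIP1 and RRM2B were opposed, with BIK at -0.09 and PMAIP1 at -0.04. Of the Wnt3a-responsive genes 3 of 4 were opposed in the immediate early list, 2 of 3 in the NF-kB list and 0 of 1 in the ribosome biogenesis list. Among transcription factors of the megakaryocyte and erythroid lineages, 5 responded to Wnt3a. GATA2 (0.25), GFI1 (-0.34) and MECOM (-0.29) were opposed, and TAL1, which fell with Wnt3a, had -0.31 and was not. CEBPA was detected on none of the untreated arrays, so no interaction is read from it, although it stands among the opposed in the counts above. Probes of metallothionein genes can share targets, since the family is near-identical in sequence, and their separate values are uncertain.

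**Figure D4:**
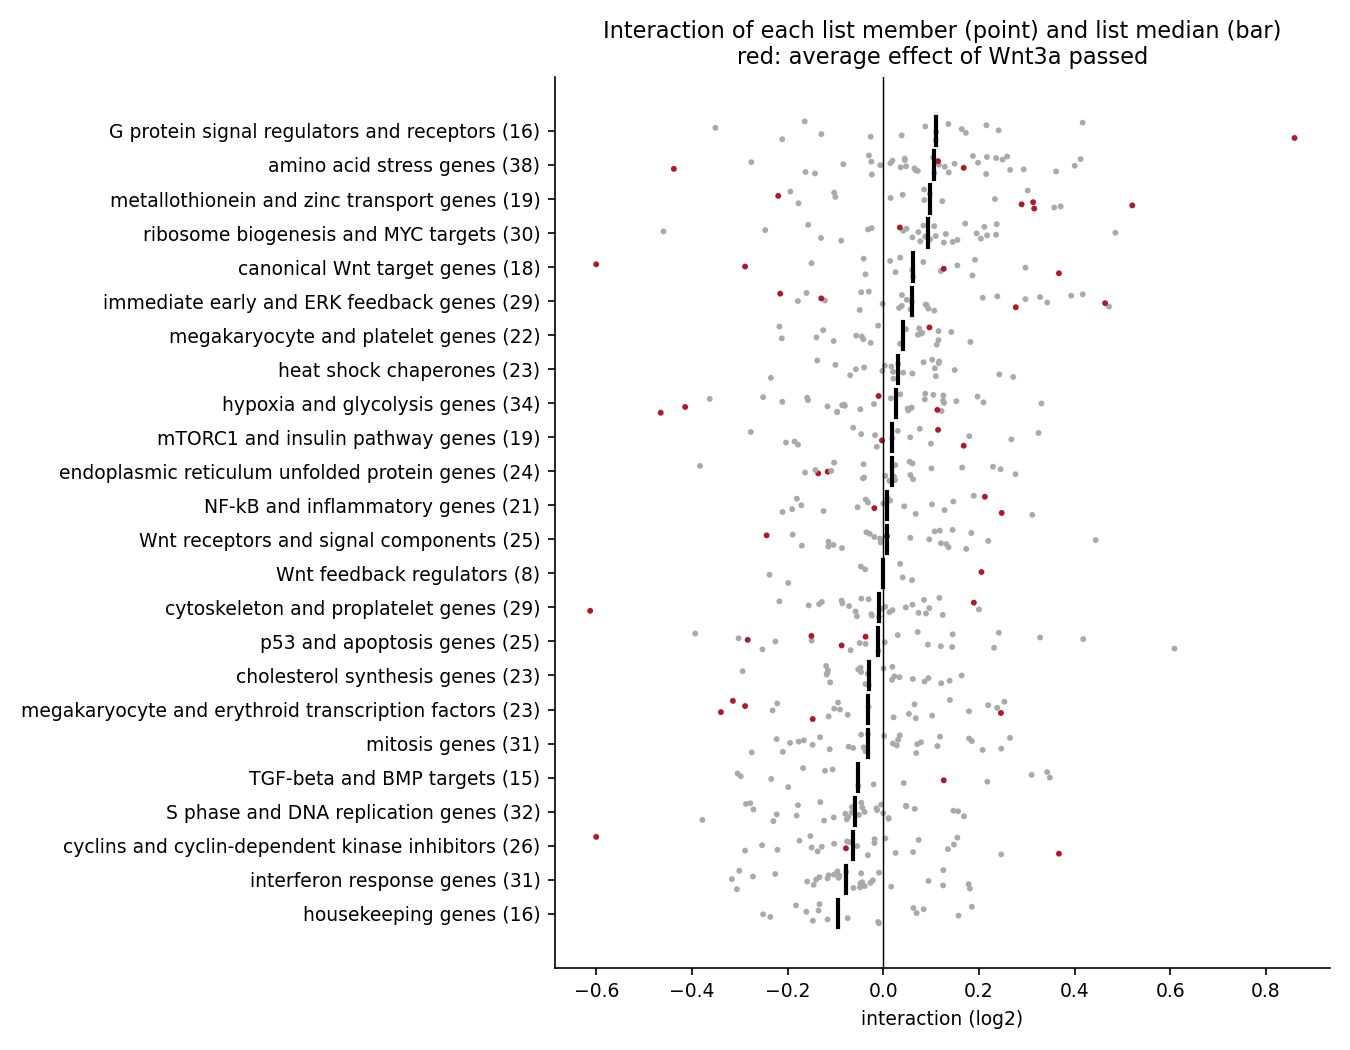
Interaction in log2 (x axis) of each tested member of the 24 lists (points, 1 probe per gene, number tested in brackets) with the list median (black bar); red points passed for the average Wnt3a effect. List medians lie between -0.10 and 0.11, and single members spread much more widely than the medians.

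**Figure D5:**
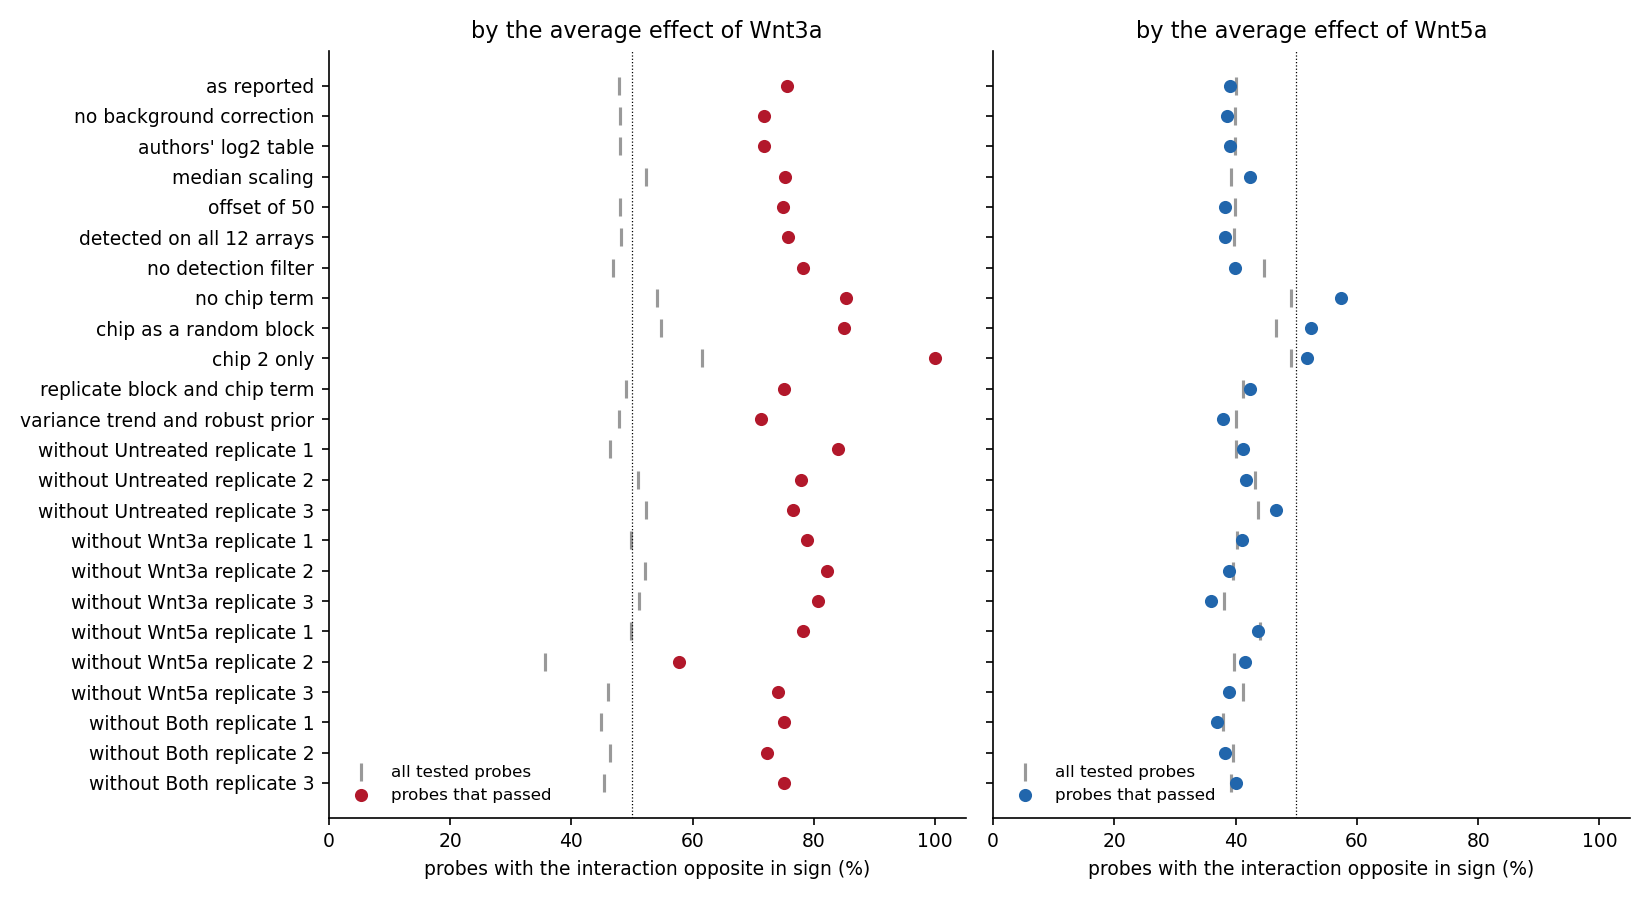
Share of probes (x axis, %) with an interaction opposite in sign to the average effect of Wnt3a (left) or Wnt5a (right), for probes that passed (dots) and all tested probes (grey ticks), under each setting (y axis). For Wnt3a the dots lie above the ticks in every setting drawn, down to 57.8% against 35.7%.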

How the data were processed

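The authors deposited a table of non-normalized probe intensity and a detection score (a fraction from 0 to 1) per array, per the file headers, and a normalized log2 table; lumi is named in the submitters' processing notes. Here intensities were background-corrected (normexp, negative controls inferred from the detection score, offset 16), quantile-normalized and taken to log2 with limma 3.58.1 in R 4.3.3. Probes with a score above 0.99 on at least 3 arrays were kept. The fit had 4 group means and a chip term, default eBayes (7 residual degrees of freedom), two-sided tests and Benjamini-Hochberg adjustment at 0.05 over 14051 probes. An average effect is the mean of a ligand's effects with and without the other ligand. Named were the 10 probes of smallest interaction p in each direction, the 10 genes of largest average effect of each ligand above the median signal, and a fixed list; some of these are not reported here. Symbols came from the platform annotation for 11775 probes and from the file for 2274. The number of arrays limits the precision. The members and lists were chosen with earlier results of these data known. The fit was tested on simulated data.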

Additional observations from a re-analysis of the deposited data

How the results depend on the processing

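The interaction called 0 probes in every setting that left out 1 array (smallest adjusted p 0.159 to 0.42), and in the fits with median scaling, an offset of 50, detection on all arrays, no detection filter, no chip term, chip as a random block and chip 2 only. It called 1 probe without background correction (C5AR1, limma adjusted p 0.0313), 1 in the authors' deposited log2 table (EPAS1, 0.0157), 3 with a variance trend and robust prior (C5AR1, NCALD and MYCN, 0.0243) and 2 on the linear scale (EPAS1, 0.000311, and C12orf76, 0.0141). Counts over named genes followed at 1, 1 and 3, and over listed genes at 1, 1 and 2. Among named genes with an interaction larger than its standard error, only PTH2 changed sign in these settings, at 12.4% of untreated signal on the linear scale. Genes nearer 0 changed sign more easily. NEK6 (-2.03%) and IL1B (3.72%) did so on the linear scale, and both of them, CEMIP2, HAVCR2, ABCC3, ADCY3 and AGPAT4 did so without 1 array. Probes passing for the average Wnt3a effect numbered 133 with no detection filter, 10 on chip 2 only and 75 to 216 without 1 array, and for Wnt5a 1069, 149 and 868 to 1975. The opposed share for Wnt3a was 85.3% with no chip term, 84.9% with chip as a random block, 100% of 10 probes on chip 2 only and 57.8% to 84.0% without 1 array. For Wnt5a it was 57.4%, 52.5%, 51.7% and 35.9% to 46.6% in those settings, and 42.4% with median scaling. For same-direction probes it was 91.7%, 94.5%, 100% of 1 probe and 71.9% to 85.3%, and for opposite-direction probes 100% of 1 probe on chip 2 and 67.7% to 100% without 1 array. Without 1 array these classes held 16 to 57 and 16 to 44 probes. The cause of these moves was not tested. Same-numbered arrays had correlated deviations from -0.407 to 0.406 after the chip term, with a median of 0.123. For different numbers the range was -0.585 to 0.269 and the median -0.0352. These ranges overlapped, and the numbers were not taken to pair samples. A fit with the replicate block called 0 probes for the interaction (smallest limma adjusted p 0.13) and 233 and 1743 for the averages. Its opposed shares were 75.1% and 42.4%. With that block the median standard error of the interaction was 0.1151, against 0.1262 in the main fit, and 1324 probes had an unadjusted p under 0.05, against 1101. Signal near background limits probes such as that of NKD1.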

Other observations

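Several groups not yet described had interactions of mostly one sign, with no member passing. In the S phase and DNA replication list 24 of 32 genes were negative, with a median of -0.06, and CDC45, POLA2, RRM2 and TK1 had an unadjusted p under 0.05, as had 7.84% of all tested genes. Of 31 interferon response genes 25 were negative, with a median of -0.08, and the immunoproteasome gene PSMB9 had -0.23. The 16 housekeeping genes had a median of -0.10 and 11 were negative, so the medians of the preceding lists were no larger in size than that of the housekeeping genes. Of 30 ribosome biogenesis and MYC target genes 23 were positive, with a median of 0.09. The nucleolar gene NOP58 had 0.49, and ODC1, the first enzyme of polyamine synthesis, had -0.46.

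Among immediate early and ERK feedback genes 20 of 29 were positive, with a median of 0.06. FOS, JUN, JUND and MCL1 had interactions of 0.34, 0.30, 0.21 and 0.33, none of which passed after adjustment. SMAD6, an inhibitor of BMP signalling, rose with Wnt5a and had 0.31.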
